A study of Homo sapiens with 8 samples.

Results

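SPP1 encodes osteopontin, a secreted, heavily phosphorylated glycoprotein of bone matrix and of inflamed or injured soft tissue. It is described here with CD44, a cell surface receptor for it, and with IBSP, MEPE, DMP1 and DSPP, the other phosphoproteins of the gene cluster on chromosome 4 that SPP1 belongs to, so that 6 of the 28265 genes counted are the subject. SPP1 was selected on these same libraries, because its log2 fold change (log2FC) was the largest of all tested genes after both treatment times. The fitted log2FC was 10.26 after 3 days, when the next gene, TRIM54, had 7.95, and 11.48 after 6 days, when the next gene, CYYR1-AS1, had 8.55. Both fits compared treated libraries with controls that held no SPP1 read pair, so these log2FC depend on the small prior count that the fit adds, and they are given only as the values that chose the gene. SPP1 is therefore described without a test, whereas the other members were chosen for their known link to it.

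The libraries came from factory RNA-Seq, which sequences RNA kept at nuclear transcription sites after most of the nucleus has been removed, in IMR90, a line of human lung fibroblasts. The 4 groups held 2 libraries each: IMR90 labelled young, called control here; IMR90 after 3 days of ICM; IMR90 after 6 days of ICM; and IMR90 labelled MetaICM, a name that the sources used here do not explain. ICM is inflachromene, a small molecule that binds the chromatin proteins HMGB1 and HMGB2 and was used to bring proliferating fibroblasts into a senescence-like arrest. All groups shared the cell line, and neither a vehicle for the controls nor a dose is given in the labels. The labels describe lysis in Trizol and poly(A) selection, so the exon counts can hold mature as well as nascent RNA. Nothing in the labels says that the libraries of a group came from separate cultures, and p-values then measure only the spread between these libraries, which may be technical.

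The libraries held between 12095123 and 23166405 counted read pairs. Levels are given as counts per 1000000 pairs (CPM) after TMM scaling over all 8 libraries, and as CPM per kb of exon where genes are compared with each other. A gene was called higher or lower with an edgeR adjusted p under 0.05 and an absolute log2FC over 0.6. All 11 fibroblast marker genes had counts in every group, with summed levels of 57985 to 64382 CPM in control, 28829 to 29948 CPM after 3 days, 22805 to 22904 CPM after 6 days and 38635 to 41674 CPM in MetaICM.

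Osteopontin carries an RGD motif through which integrins containing the αv or α5 chain hold it, and a neighbouring site, uncovered by thrombin or matrix metalloproteinase cleavage, through which α4 and α9 integrins bind. CD44 binds it outside the RGD motif and links the outside of the cell to the actin skeleton through ezrin, radixin and moesin. The kinase FAM20C phosphorylates osteopontin, and transglutaminase cross-links it. In bone it is made by osteoblasts, and in other tissues it is best known from macrophages, activated fibroblasts and tumours, where it acts as a cytokine and can be part of the secretory phenotype of senescent cells.

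No SPP1 read pair was counted in either control library. The 2 libraries after 3 days of ICM held 200 and 142 SPP1 pairs, the 2 libraries after 6 days held 367 and 442, and the MetaICM libraries held 0 and 1. SPP1 was thus present in all 4 ICM libraries and at or near 0 in the other 4, with no overlap between the time points. SPP1 reached 9.38 ± 0.268 CPM (SD, n = 2) after 3 days and 21.6 ± 2.67 CPM (SD, n = 2) after 6 days. A count of 0 allows up to 3 pairs, which is 0.178 and 0.248 CPM in the individual control libraries and 0.104 CPM over the control group. Against that floor of 3 pairs over the group, SPP1 was at least 90.0-fold higher after 3 days and at least 208-fold higher after 6 days.

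The level after 6 days was 2.31-fold that after 3 days (95% exact binomial interval 2.03 to 2.63). Against the single pair in MetaICM, the ratio was 404 after 3 days (interval 72.1 to 16009) and 934 after 6 days (interval 167 to 36938). Control and MetaICM were both under the floor, and no fold between them can be given. These intervals and floors cover counting error only, as PCR copies of a fragment are not separate molecules. The order of the groups by SPP1 level was therefore 6 days, 3 days and then MetaICM and control together, which were not distinguishable at this depth. Fewer cells that make SPP1 and less SPP1 RNA per cell cannot be told apart in such bulk libraries.

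**Figure D1:**
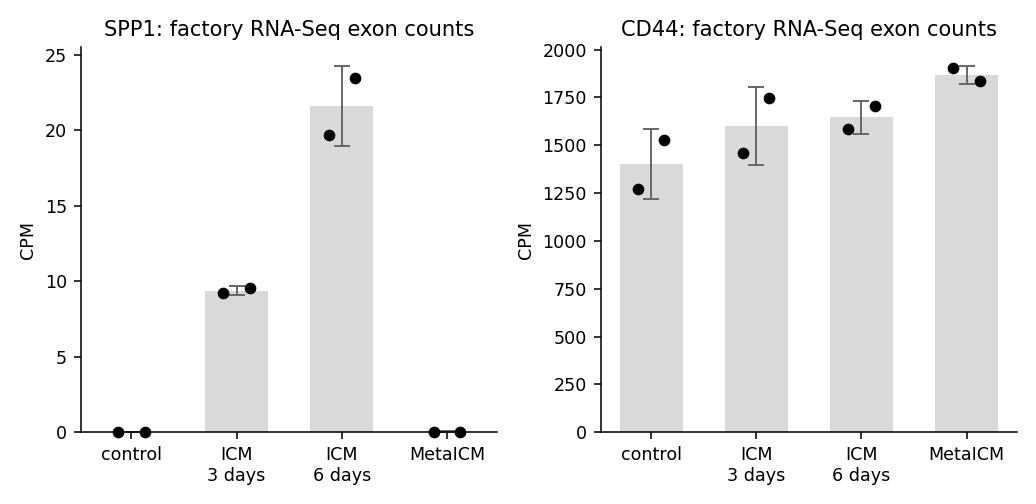
Levels of SPP1 (left) and CD44 (right) in CPM on linear axes from 0, with each library as a point, the group mean as a bar and the SD over 2 libraries as an error bar. SPP1 lies at 9.19 to 9.57 CPM after 3 days and at 19.7 to 23.5 CPM after 6 days and is at or near 0 elsewhere, whereas CD44 exceeds 1270 CPM in every library.

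Per kb of exon, SPP1 stood at 5.07 and 5.28 CPM in the 3-day libraries, above 62.8% and 62.5% of the genes detected there. In the 6-day libraries it stood at 10.9 and 12.9 CPM per kb, above 78.9% and 81.5% of the detected genes. SPP1 thus went from no counted pair to a level above most detected genes at both times.

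Since SPP1 is also a macrophage gene, a list of 10 macrophage markers was read beside it. Its summed level was 8.28 to 8.38 CPM in control, 21.0 to 24.5 CPM after 3 days, 20.1 to 24.5 CPM after 6 days and 17.0 to 17.5 CPM in MetaICM. CD68, a lysosomal protein that fibroblasts also make, supplied most of it, at 20.5 and 16.0 CPM after 3 days and at 12.7 and 13.1 CPM in MetaICM, where SPP1 was nearly absent. Of the 10 markers, 8 had any count in control, 5 after 3 days, 9 after 6 days and 9 in MetaICM. In each group 4 of them held 10 or more pairs. SPI1, the transcription factor that defines myeloid cells, was at 0 in all 4 ICM libraries but had a count in control and in MetaICM. PTPRC, also on the list, held 13 pairs over the control group, 27 after 3 days, 42 after 6 days and 10 in MetaICM. That order of groups was like that of SPP1, at a far lower level. CD14 held 13, 39, 17 and 54 pairs over the same groups, a different order. Both are given as counts with no test. The part of macrophages in the SPP1 level was not tested.

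SPP1 lies on chromosome 4 of hg19 from 88896802 to 88904563 on the plus strand, with 1814 exon bases that no other gene shares. The phosphoproteins of its cluster lie upstream on the same strand, MEPE 129 kb, IBSP 163 kb, DMP1 311 kb and DSPP 359 kb away. They encode matrix proteins of bone and tooth: bone sialoprotein (IBSP), matrix extracellular phosphoglycoprotein (MEPE), dentin matrix acidic phosphoprotein (DMP1) and dentin sialophosphoprotein (DSPP). Near-zero counts were found for all 4. IBSP had 1 pair in all 8 libraries, in a control library. MEPE had 1 pair in each 6-day library. DMP1 had 2 pairs in a 3-day library and 2 in a 6-day library. DSPP had 2 pairs in a control library and 3 in a MetaICM library. None of these 4 genes reached 3 pairs in any ICM library, and none was abundant enough to be tested in any of the 5 comparisons. At this depth no SPP1-like increase was detectable in them, and group sums of 0 to 3 pairs compare with 342 and 809 pairs for SPP1 after 3 and 6 days. Of the 6 members, CD44 could be tested in 5 comparisons, SPP1 passed the filter on low counts in 4 through its ICM libraries alone, and the rest passed in 0.

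Starts of RefSeq genes, on build GRCh38.p14, gave the 250 bases upstream of all 6 members. Those of SPP1, of its silent neighbour IBSP and of the highly expressed CD44 are shown, each 5′ to 3′ on its own strand, because the levels of these 3 genes differ most. Capitals mark matches to 7 motifs, each searched on both strands. For RUNX factors the letters were ACCACA, for AP-1 they were TGANTCA, and for E-box factors such as MYC they were CACGTG. Of general promoter elements, the TATA box was searched as TATAAA and separately as its common variant TTTAAA, the GC box of Sp1 as GGGCGG, and the box bound by NF-Y as CCAAT. No marked match overlaps another.
SPP1, chr4:87975464-87975713, plus strand: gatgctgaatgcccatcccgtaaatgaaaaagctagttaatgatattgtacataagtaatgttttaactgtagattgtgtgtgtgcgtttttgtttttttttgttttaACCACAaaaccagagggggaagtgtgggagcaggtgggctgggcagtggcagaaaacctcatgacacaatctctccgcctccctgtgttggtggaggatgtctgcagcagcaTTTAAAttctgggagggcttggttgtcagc
IBSP, chr4:87799304-87799553, plus strand: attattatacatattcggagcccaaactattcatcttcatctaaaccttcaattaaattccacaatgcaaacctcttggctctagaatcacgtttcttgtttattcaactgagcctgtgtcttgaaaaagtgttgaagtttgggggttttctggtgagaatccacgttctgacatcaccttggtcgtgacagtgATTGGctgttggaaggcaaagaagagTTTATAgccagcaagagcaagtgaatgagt
CD44, chr11:35138921-35139170, plus strand: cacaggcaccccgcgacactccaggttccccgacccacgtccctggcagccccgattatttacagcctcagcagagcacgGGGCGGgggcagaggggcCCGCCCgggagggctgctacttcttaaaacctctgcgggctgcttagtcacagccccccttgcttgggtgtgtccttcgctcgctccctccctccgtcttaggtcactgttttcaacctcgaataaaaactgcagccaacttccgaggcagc
The SPP1 window holds TTTAAA from 30 to 25 bases before the start, where a TATA box usually lies, and ACCACA from 142 to 137 bases before it. The first occurs in 11.3% and the second in 11.0% of the 35114 RefSeq windows of this length. Both also lie in the window of the near-silent DMP1, the TATA variant 31 to 26 and the RUNX motif 166 to 161 bases before its start. The same variant lies 28 to 23 bases before the start of DSPP and 123 to 118 bases before that of MEPE. IBSP has a TATA box on the minus strand of the motif, TTTATA, at the same 30 to 25 bases before its start, which 10.7% of windows hold, and the NF-Y sequence in reverse, which 32.0% hold. CD44 has 2 GC boxes, in forward orientation 170 to 165 and in reverse 152 to 147 bases before its start, and 42.6% of windows hold such a box. The AP-1 motif, found in 6.57% of windows, and the E-box, found in 6.35%, matched in none of the 3. The GC content was 44.8% for SPP1, 40.0% for IBSP and 62.4% for CD44, against a median of 58.0% over all windows. These matches describe letters only.

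CD44 was among the most abundant RNAs in every library. It lies on chromosome 11 of hg19 from 35160718 to 35253949 on the plus strand, with 6376 exon bases. Its level was 1273 and 1530 CPM in control, 1457 and 1747 CPM after 3 days, 1585 and 1706 CPM after 6 days and 1902 and 1834 CPM in MetaICM. The 3-day libraries overlapped those of control and those of 6 days. Both 6-day libraries lay above both control libraries, and both MetaICM libraries lay above the other 6. In each library CD44 stood above 99.3% to 99.6% of the detected genes. Per kb of exon, its 229 and 274 CPM after 3 days and 249 and 268 CPM after 6 days compare with 5.07 to 5.28 and 10.9 to 12.9 CPM of SPP1.

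CD44 was not called in any comparison. The log2FC was 0.19 (standard error 0.149, edgeR adjusted p = 0.375) after 3 days, 0.23 (standard error 0.130, edgeR adjusted p = 0.186) after 6 days, and 0.035 (edgeR adjusted p = 0.840) between 6 and 3 days. For MetaICM it was 0.41 (standard error 0.140, edgeR adjusted p = 0.0519) against control and 0.18 (edgeR adjusted p = 0.0628) against 6 days. Over the alternative analyses the adjusted p against control for MetaICM ran from 9.45e-05 to 0.240, and the log2FC stayed between 0.29 and 0.55, under the cutoff of 0.6. Leaving out control library 1 brought the 3-day value to 0.066, and leaving out control library 2 brought it to 0.31. The 3-day libraries thus overlapped both control and 6 days. Both 6-day libraries lay above both control libraries, a difference that was not called.

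The receptors of osteopontin were mixed. Of 10 receptor genes, 9 were tested. After 3 days 2 were higher and 1 lower, beside 8.85% higher and 13.2% lower among all 15692 tested genes. Of the called genes 40.19% were higher, and 50.25% with library totals in place of TMM. After 6 days 1 was higher and 3 lower, beside 13.3% and 17.2% of 15950 genes. The median log2FC of the list was −0.32 and −0.41 at the 2 times, and that of all tested genes 0.0094 and −0.0013. The 3-day and 6-day comparisons share their control libraries, and the values are given side by side.

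ITGB3, the β3 chain that pairs with αv to form the classical osteopontin integrin, was at 173 and 146 CPM in control, 327 and 301 CPM after 3 days, 121 and 117 CPM after 6 days and 99.2 and 91.3 CPM in MetaICM. It rose after 3 days (log2FC 0.97, standard error 0.131, edgeR adjusted p = 0.000149). At 6 days it was lower than at 3 days (log2FC −1.40, standard error 0.0898, edgeR adjusted p = 2.56e-09). ITGB3 was thus highest at the time when SPP1 was at its lower treated level. ITGB5, the β5 chain and another αv partner, rose from 103 and 75.3 CPM to 182 and 156 CPM after 3 days (log2FC 0.91, edgeR adjusted p = 0.00103). It stayed higher after 6 days at 183 and 140 CPM (log2FC 0.85, edgeR adjusted p = 0.00245) and was higher in MetaICM too (log2FC 0.88, edgeR adjusted p = 0.00244). ITGAV, the αv chain itself, lay at 435 to 675 CPM in all libraries and was not called in any comparison.

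Other integrin chains, among them those for the cleaved form, were lower with ICM. ITGA4, the α4 chain, fell from 88.3 and 74.3 CPM to 48.8 and 45.8 CPM after 3 days (log2FC −0.78, edgeR adjusted p = 0.00123) and to 49.1 and 41.8 CPM after 6 days (log2FC −0.84, edgeR adjusted p = 0.000664). ITGA9, the α9 chain, was scarce, at 3.15 and 3.48 CPM in control and 1.83 and 1.28 CPM after 6 days (log2FC −1.09, edgeR adjusted p = 0.0143). The ITGA9 call was lost with DESeq2 and without the 6-day library 2. ITGA5, the fibronectin receptor chain, fell after 6 days (log2FC −0.93, edgeR adjusted p = 0.00118), from 668 and 484 CPM to 338 and 268 CPM. ITGB6 had 0 to 2 pairs per library and was not tested.

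In MetaICM, where SPP1 had 0 and 1 pairs, 2 receptors were higher and 1 lower than in control, beside 7.41% higher and 8.99% lower among 15904 genes. ITGA8, an RGD-binding chain best known from smooth muscle and kidney mesenchyme, was at 59.4 and 48.7 CPM in MetaICM and at 3.44 to 5.59 CPM in the other 6 libraries. It was higher than in control (log2FC 3.35, standard error 0.166, edgeR adjusted p = 6.96e-06) and than after 6 days (log2FC 3.40, standard error 0.123, edgeR adjusted p = 2.09e-15). Against 6 days, 2 receptors were higher and 0 lower in MetaICM, beside 15.7% higher and 12.0% lower among 16036 genes. The ITGA5 call was lost there without the 6-day library 2, which left 1 receptor called. Between 6 and 3 days, 0 receptors were higher and 2 lower, beside 3.53% and 4.54% of 15845 genes. The ITGA5 call of that comparison was lost with DESeq2, without the 3-day library 1 and without the 6-day library 2, with log2FC from −0.78 to −0.44 over the libraries left out.

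Among 13 genes that modify or cleave osteopontin, 8 were tested after 3 days, of which 3 were higher and 2 lower, beside 8.85% higher and 13.2% lower of all tested genes. After 6 days 10 were tested, of which 3 were higher and 3 lower, beside 13.3% and 17.2%. The list's median log2FC was 0.22 after 3 days and 0.19 after 6 days. MMP3, stromelysin-1, a matrix metalloproteinase that cuts osteopontin, was at 16.1 and 8.69 CPM in control. It was at 607 and 528 CPM after 3 days, at 587 and 567 CPM after 6 days and at 19.0 and 17.1 CPM in MetaICM. MMP3 rose after 3 days (log2FC 5.49, standard error 0.238, edgeR adjusted p = 1.72e-08) and after 6 days (log2FC 5.51, standard error 0.23, edgeR adjusted p = 7.66e-08). In MetaICM it was lower than after 6 days (log2FC −5.00, standard error 0.091, edgeR adjusted p = 6.94e-20). The 4 ICM libraries did not overlap the others, and the 6-day level of MMP3 was not called against the 3-day level (log2FC 0.018, standard error 0.0913, edgeR adjusted p = 0.917), whereas that of SPP1 was 2.31-fold.

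MMP12, macrophage elastase, which also cleaves osteopontin, had 1 and 0 pairs in control, 50 and 30 after 3 days, 32 and 20 after 6 days and 2 and 5 in MetaICM. The ratio to control was 63.2 after 3 days (exact binomial interval 11.0 to 2527) and 40.1 after 6 days (interval 6.89 to 1615). Against MetaICM the 6-day level was 8.58-fold (interval 3.88 to 22.4). MMP12 passed the filter on low counts only through the ICM libraries, so these ratios are a description and its calls, counted in the list above, are no support. CTSD, the lysosomal protease cathepsin D, rose from 124 and 79.1 CPM to 224 and 201 CPM after 3 days (log2FC 1.06, edgeR adjusted p = 0.00094) and was higher after 6 days (log2FC 1.20, edgeR adjusted p = 0.000413). MMP7, MMP9 and PLG had 0 to 2 pairs per library, so none of these proteases could be tested.

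FAM20C, the Golgi kinase that phosphorylates osteopontin and the other phosphoproteins of the cluster, moved opposite to SPP1. It was at 73.5 and 85.4 CPM in control, 55.6 and 48.9 CPM after 3 days, 27.0 and 23.6 CPM after 6 days and 86.8 and 89.6 CPM in MetaICM. It fell after 6 days (log2FC −1.65, standard error 0.136, edgeR adjusted p = 6.7e-06) and was lower than at 3 days (log2FC −1.05, edgeR adjusted p = 2.21e-06). MetaICM was higher than 6 days (log2FC 1.80, edgeR adjusted p = 1.51e-13). The 3-day value of −0.60 (edgeR adjusted p = 0.0074) lay at the cutoff and its call was lost with library totals, with all genes kept, with all 8 libraries in one fit, and without control library 2 or the 3-day library 2. TGM2, the cross-linking transglutaminase, fell from 595 and 467 CPM to 274 and 248 CPM after 3 days (log2FC −1.03, edgeR adjusted p = 0.000194) and to 243 and 223 CPM after 6 days (log2FC −1.19, edgeR adjusted p = 6.04e-05). In MetaICM TGM2 was at 932 and 821 CPM, higher than after 6 days (log2FC 1.91, edgeR adjusted p = 4.28e-14). MMP2, a gelatinase, fell after 6 days (log2FC −0.93, edgeR adjusted p = 0.000308). In MetaICM against control, 2 of 7 tested genes of this list were higher and 1 lower, with 1 to 5 called when a library was left out (5 without control library 1, 1 without control library 2), beside 7.41% higher and 8.99% lower of all tested genes. Against 6 days, 2 of 8 were higher and 3 lower, beside 15.7% and 12.0%, and between 6 and 3 days 0 of 9 were higher and FAM20C alone was lower, beside 3.53% and 4.54%.

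**Figure D2:**
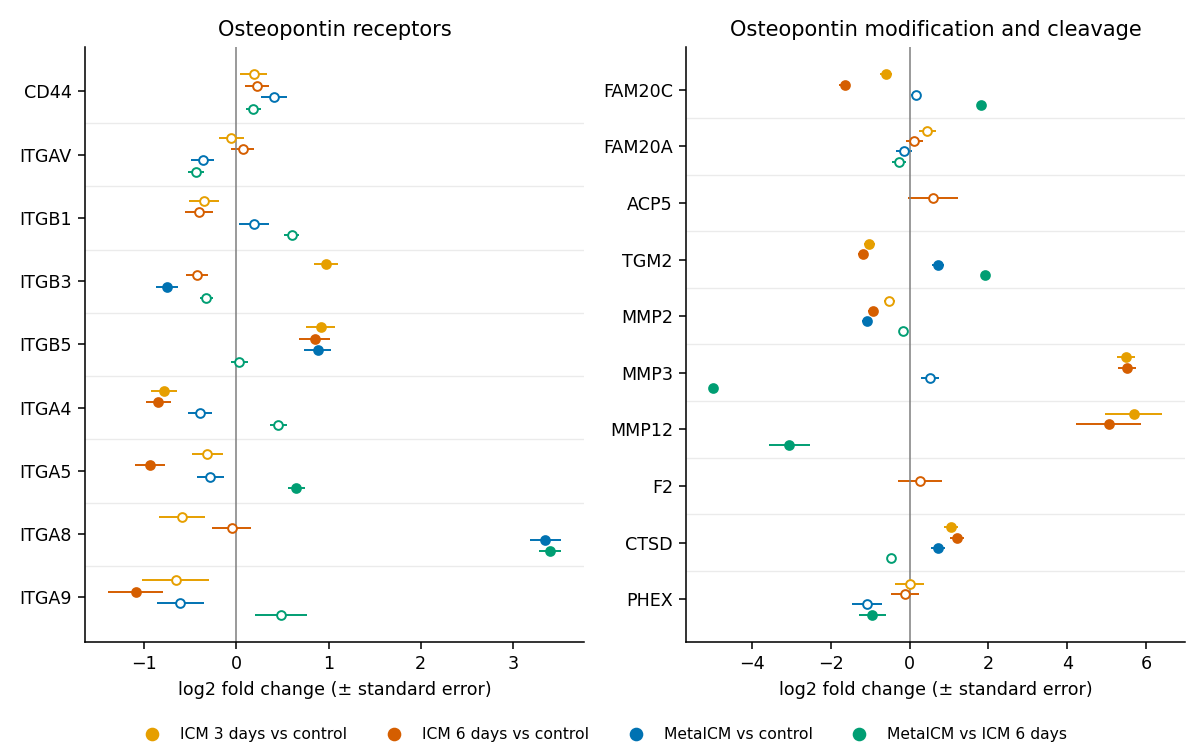
Log2 fold change with its standard error for each tested osteopontin receptor (left) and each tested gene that modifies or cleaves osteopontin (right), with colours for 4 comparisons of 2 against 2 libraries. Filled points were called and open points were not; MMP3 lies near 5.5 after both ICM times and at −5.00 for MetaICM against 6 days, whereas CD44 reaches at most 0.41.

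CD44 works with a set of partner proteins. Of 15 genes for its actin linkers, sheddases, γ-secretase subunits and splicing factors, 14 were tested. After 3 days 1 was higher and 2 lower, and after 6 days 1 was higher and 3 lower, with median log2FC of −0.16 and −0.0091. These shares were near those of all tested genes, 8.85% higher and 13.2% lower after 3 days and 13.3% higher and 17.2% lower after 6 days. EZR, ezrin, fell from 198 and 153 CPM to 109 and 104 CPM after 3 days (log2FC −0.73, edgeR adjusted p = 0.00238, lost without control library 1 at −0.52) and to 75.5 and 79.6 CPM after 6 days (log2FC −1.18, edgeR adjusted p = 7.38e-05). It was higher in MetaICM than after 6 days (log2FC 1.13, edgeR adjusted p = 2.62e-11). MMP14, a membrane protease that sheds CD44, fell after 6 days (log2FC −0.78, edgeR adjusted p = 0.00326, lost without control library 1 at −0.47). PSENEN, a γ-secretase subunit, rose after 6 days (log2FC 0.79, edgeR adjusted p = 0.00255). KHDRBS1, the splicing factor Sam68, fell after 6 days (log2FC −0.73, edgeR adjusted p = 0.000761). Between 6 and 3 days, 0 of the 14 were called, beside 3.53% higher and 4.54% lower of all tested genes. In MetaICM, 1 was higher and 0 lower than control, a call on APH1A that was lost without control library 2 or MetaICM library 2, and 2 were higher and 1 lower than after 6 days. For MetaICM the shares of all tested genes were 7.41% higher and 8.99% lower against control, and 15.7% and 12.0% against 6 days. Counts per gene do not show which CD44 splice form was made.

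Of 20 transcription factors known to act on SPP1, 18 were tested. After 3 days 3 were higher and 2 lower, and after 6 days 2 were higher and 4 lower, with list medians of 0.14 at both times. Of all tested genes, 8.85% were higher and 13.2% lower after 3 days, and 13.3% higher and 17.2% lower after 6 days, so the number of regulators called was near the background. RUNX2, the master factor of osteoblasts, was at 17.2 and 18.0 CPM in control, 6.53 and 10.2 CPM after 3 days, 5.42 and 4.57 CPM after 6 days and 10.9 and 12.1 CPM in MetaICM. It fell after 3 days (log2FC −1.09, standard error 0.216, edgeR adjusted p = 0.00258) and after 6 days (log2FC −1.82, standard error 0.176, edgeR adjusted p = 2.22e-05). In MetaICM it was also lower than in control (log2FC −0.61, edgeR adjusted p = 0.0132), a call lost with library totals, with all genes kept, and without control library 2 or either MetaICM library. MetaICM was higher than 6 days (log2FC 1.20, edgeR adjusted p = 1.65e-06). ETS1 fell too (log2FC −1.10, edgeR adjusted p = 0.000118 after 6 days), as did the hedgehog factor GLI1 (log2FC −1.45, edgeR adjusted p = 0.00668 after 6 days) and JUNB (log2FC −0.85, edgeR adjusted p = 0.00124 after 6 days).

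Of the 7 genes on this list that encode AP-1, the dimer of Jun and Fos proteins, JUN and FOSB were called higher with ICM and JUNB, given above, lower after 6 days. FOS, FOSL1, FOSL2 and JUND were not called after either time. JUN went from 131 and 113 CPM to 230 and 209 CPM after 3 days (log2FC 0.85, edgeR adjusted p = 0.000421) and 227 and 274 CPM after 6 days (log2FC 1.04, edgeR adjusted p = 0.00014). FOSB went from 1.49 CPM in each control library to 3.06 and 4.09 CPM after 6 days (log2FC 1.26, edgeR adjusted p = 0.00707, lost without the 6-day library 2 over a range of 1.04 to 1.46). It was at 0.545 and 0.521 CPM in MetaICM, lower than after 6 days (log2FC −2.73, edgeR adjusted p = 3.22e-07). CEBPB, a factor of inflammatory genes, rose after 3 days (log2FC 0.79, edgeR adjusted p = 0.00388). In MetaICM, 3 regulators were higher and 5 lower than control, with 2 to 8 called when a library was left out (5 without MetaICM library 1, 2 without MetaICM library 2). MSX2, a homeobox factor of bone and skin appendages, led the higher ones (log2FC 1.72, edgeR adjusted p = 0.00108), and FOS the lower ones (log2FC −1.97, edgeR adjusted p = 0.00394). Against 6 days, 5 were higher and 4 lower, and between 6 and 3 days 0 were higher and 3 lower, of which 1 was still called without the 3-day library 2. Of all tested genes, 7.41% were higher and 8.99% lower in MetaICM than in control. Against 6 days these shares were 15.7% and 12.0%, and between 6 and 3 days 3.53% and 4.54%. DLX5, an osteoblast factor, was at 0 in all libraries, and SP7, osterix, had 0 to 4 pairs per library.

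Of 16 genes of mineralised tissue 11 were tested. After 3 days 0 were higher and 7 lower, beside 8.85% higher and 13.2% lower of all tested genes, and after 6 days 1 was higher and 6 lower, beside 13.3% and 17.2%. The median log2FC was −0.86 and −0.92. ALPL, tissue-nonspecific alkaline phosphatase, which frees phosphate for mineral, was at 5.77 and 6.54 CPM in control, 1.65 and 1.69 CPM after 3 days, 1.88 and 1.75 CPM after 6 days and 11.5 and 12.1 CPM in MetaICM. It fell after 3 days (log2FC −1.88, edgeR adjusted p = 0.000311) and after 6 days (log2FC −1.76, edgeR adjusted p = 0.000298) and was higher in MetaICM than in control (log2FC 0.94, edgeR adjusted p = 0.00431). OMD, osteomodulin, fell after 6 days (log2FC −2.25, edgeR adjusted p = 0.000157), and so did COL1A1, the main collagen of bone and of fibroblasts (log2FC −2.17, standard error 0.127, edgeR adjusted p = 6.17e-07), from 8079 and 8806 CPM to 1889 and 1874 CPM. ANKH, a pyrophosphate exporter, fell at both times (log2FC −1.27, edgeR adjusted p = 0.000105 after 6 days). The exception was TNFRSF11B, osteoprotegerin, a decoy receptor that restrains osteoclasts, which rose after 6 days from 146 and 126 CPM to 384 and 348 CPM (log2FC 1.42, standard error 0.119, edgeR adjusted p = 7.44e-06).

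Several of these genes are fibroblast genes as well. Of the 11 fibroblast markers 8 were lower after each ICM time and 0 higher, beside 13.2% and 17.2% of all tested genes lower. The part of that decline in the mineralised tissue genes was not tested. In MetaICM, 1 mineralised tissue gene was higher and 3 lower than control, with 2 called without control library 2 and 1 without MetaICM library 2. Against 6 days 4 were higher and 3 lower, beside 15.7% and 12.0% of all tested genes. Between 6 and 3 days 1 was higher and 3 lower, with 7 called without the 3-day library 1 and 2 without the 3-day library 2. Among all tested genes the shares were 7.41% higher and 8.99% lower for MetaICM against control, and 3.53% and 4.54% between 6 and 3 days. The osteoblast genes SP7, BGLAP, PHOSPHO1 and IBSP held at most 11 pairs in a library, and TNFSF11, which encodes RANKL, was at 0 in all libraries.

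**Figure D3:**
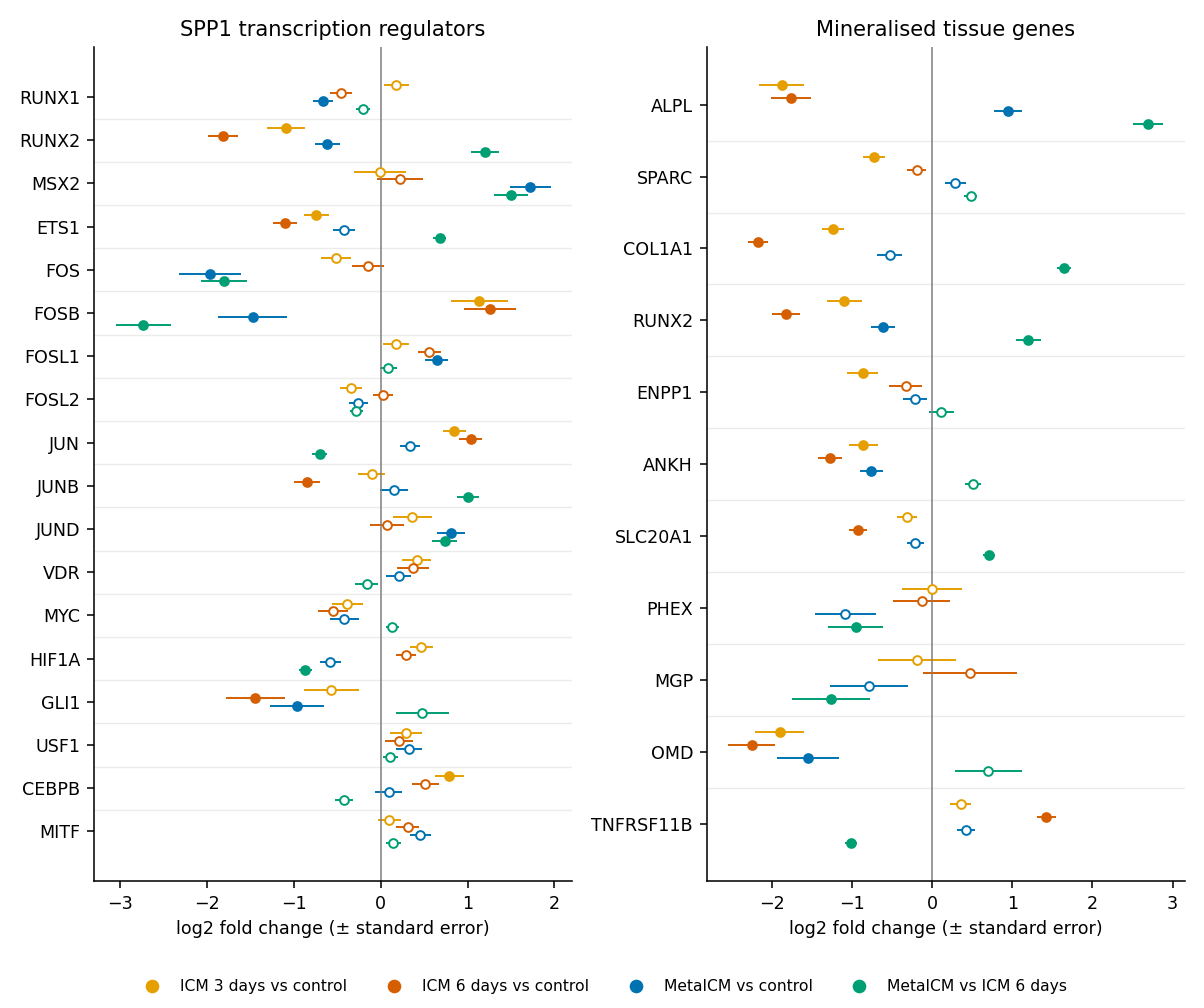
Log2 fold change with its standard error for each tested transcription factor known to act on SPP1 (left) and each tested gene of mineralised tissue (right), with colours for 4 comparisons of 2 against 2 libraries. Filled points were called and open points were not; RUNX2, in both panels, is lower after both ICM times, and ALPL is lower with ICM and higher in MetaICM.

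The secretory calcium-binding phosphoproteins are a family that also includes enamel, milk and saliva proteins. Of 12 further members of it, 5 were at 0 in all libraries (AMTN, ODAM, CSN2, HTN1 and HTN3) and 5 held 1 to 10 pairs over all 8. ENAM, which encodes the enamel matrix protein enamelin, was one of the 2 with more. It had 2 and 4 pairs in control, 16 and 15 after 3 days, 51 and 43 after 6 days and 2 and 9 in MetaICM, an order of groups like that of SPP1 at a far lower level. Against control and MetaICM, ENAM passed the filter on low counts only through the ICM libraries, so those differences are given as counts with no test. It was higher after 6 days than after 3 days (log2FC 1.54, standard error 0.346, edgeR adjusted p = 0.00368). The other, SPARCL1, a matricellular protein related to SPARC, held 8 to 26 pairs per library and was not called with ICM.

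Around SPP1 on chromosome 4, 24 other RefSeq genes lay within 1000000 bases of either end of the gene, IBSP, MEPE, DMP1 and DSPP among them. After 3 days 14 were tested, of which 4 were higher and 1 lower, with a median log2FC of 0.48, beside 8.85% higher and 13.2% lower of all tested genes. After 6 days 13 were tested, of which 7 were higher and 1 lower, with a median of 0.68, beside 13.3% higher, 17.2% lower and a median of −0.0013 for all tested genes. In MetaICM against 6 days 1 of 13 was higher and 9 were lower, with a median of −0.91, beside 15.7% higher and 12.0% lower of all tested genes. MetaICM and control differed in 1 higher and 1 lower call of 13, beside 7.41% and 8.99% of all tested genes. These calls, HERC6 and FAM13A-AS1, were both lost with DESeq2. Between 6 and 3 days 3 of 14 were higher and 1 lower, beside 3.53% and 4.54% of all tested genes.

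The nearest neighbour downstream, PKD2, which encodes the cation channel polycystin-2 and begins 24.2 kb from the end of SPP1, went from 110 and 116 CPM to 73.6 and 78.5 CPM after 3 days, where it was not called (log2FC −0.58, edgeR adjusted p = 0.00442). It fell after 6 days to 68.1 and 71.5 CPM (log2FC −0.70, standard error 0.111, edgeR adjusted p = 0.000635). ABCG2, a drug and urate exporter on the opposite strand 107 kb away, was at 5.83 and 5.80 CPM in control, 11.9 and 11.1 CPM after 3 days, 30.4 and 30.7 CPM after 6 days and 6.49 and 7.73 CPM in MetaICM. ABCG2 thus followed the group order of SPP1, with a log2FC of 0.98 after 3 days (edgeR adjusted p = 0.0036), 2.39 after 6 days (standard error 0.155, edgeR adjusted p = 1.18e-06) and −2.10 for MetaICM against 6 days (edgeR adjusted p = 2.09e-12). PPM1K, a mitochondrial phosphatase 274 kb away, was at 10.5 to 13.4 CPM in control and after 3 days and at 29.4 and 34.4 CPM after 6 days (log2FC 1.42, edgeR adjusted p = 9.29e-05). HERC3, a ubiquitin ligase gene 540 kb away, rose at both times (log2FC 1.18, edgeR adjusted p = 4.97e-05, and 1.15, edgeR adjusted p = 3.75e-05).

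Further out, FAM13A rose at both times (log2FC 0.92 at each, edgeR adjusted p = 0.000825 and 0.000672), NAP1L5 rose after 6 days (log2FC 1.37, edgeR adjusted p = 0.00268), and NUDT9, upstream of SPP1, rose after 6 days (log2FC 0.95, edgeR adjusted p = 0.001). FAM13A overlaps its antisense gene FAM13A-AS1, and NAP1L5 lies inside HERC3 on the opposite strand; pairs were counted without regard to strand, and reads of such partners cannot be told apart. The tested neighbours that rose lay mostly beyond PKD2, while the 4 phosphoproteins between NUDT9 and SPP1 stayed near 0. HSD17B11 fell after 3 days (log2FC −0.67, edgeR adjusted p = 0.00909), a call lost with library totals and without the 3-day library 2. AFF1, KLHL8 and SPARCL1 were not called with ICM, and HERC5 and HERC6 were not called against control after 3 days. HSD17B13 had 2 to 9 pairs per library, PPM1K-DT, PIGY and PIGY-DT had 0 to 5, and MIR5705 and PYURF were at 0 throughout. PIGY and PYURF overlap on the same strand, and share all 1310 exon bases of PYURF and 1310 of the 1356 of PIGY. Pairs over shared bases cannot be assigned to either gene, so these counts do not show that PIGY and PYURF were silent.

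**Figure D4:**
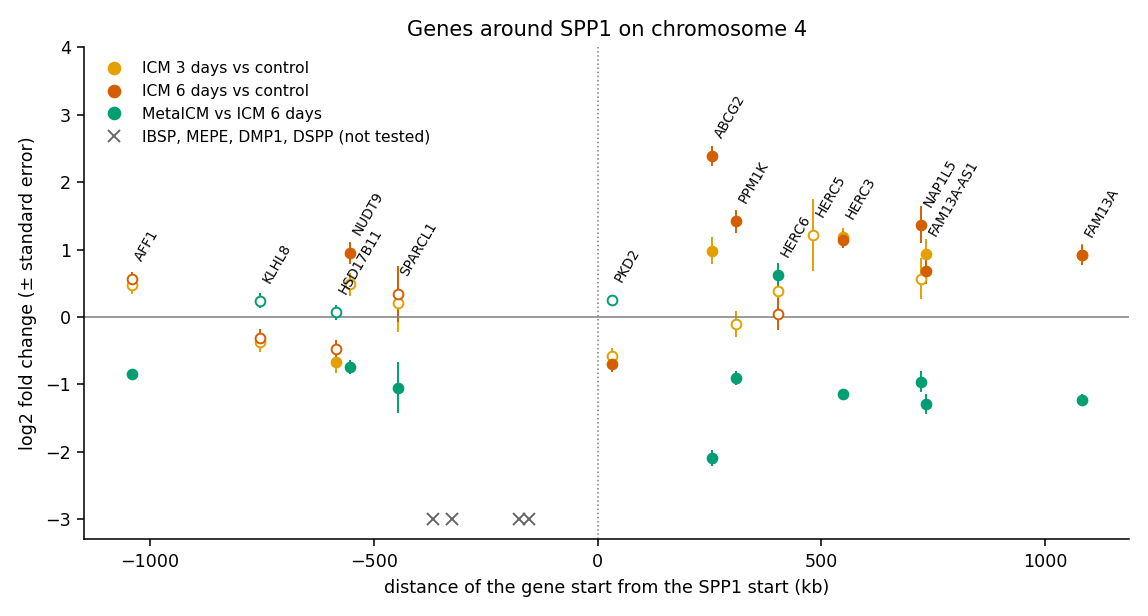
Log2 fold change with its standard error (y) of the tested genes around SPP1, placed by the distance of their start from that of SPP1 in kb (x, dotted line at SPP1), in 3 comparisons of 2 against 2 libraries. Filled points were called and open points were not, crosses mark the 4 phosphoproteins too scarce to test, SPP1 itself is not drawn, and ABCG2 shows both the highest value, 2.39 after 6 days, and the lowest, −2.10 in MetaICM against 6 days.

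Genes were also ranked by how closely their log2(CPM + 0.5) over the 8 libraries followed that of SPP1, among 16591 genes with enough counts. The 8 closest had Pearson r of 0.994 to 0.999, all over the same 8 libraries in 4 groups, so that r reflects mainly the group levels. GCLM, a subunit of the enzyme that begins glutathione synthesis, came first with r = 0.999. It was at 69.7 and 71.7 CPM in control, 337 and 333 CPM after 3 days, 495 and 535 CPM after 6 days and 80.5 and 82.7 CPM in MetaICM. TDP2, a DNA repair phosphodiesterase, was at 18.5 and 18.9 CPM in control, 70.2 and 63.2 CPM after 3 days and 85.2 and 88.2 CPM after 6 days. PGD, 6-phosphogluconate dehydrogenase of the pentose phosphate pathway, was at 288 and 249 CPM in control and at 980 and 1077 CPM after 6 days. The others were PHF20L1, RALA, SRPX2, GLDN and DNTTIP2. All 8 shared the order control and MetaICM low, 3 days higher and 6 days highest, though their folds were far smaller than that of SPP1. GCLM and TDP2 remained among the 8 in all 10 alternatives, which changed the scaling or the added constant or left out a library, whereas GLDN remained in 1. MMP3 ranked 108 with r = 0.980, and CD44 ranked 8091 with r = 0.040.

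**Figure D5:**
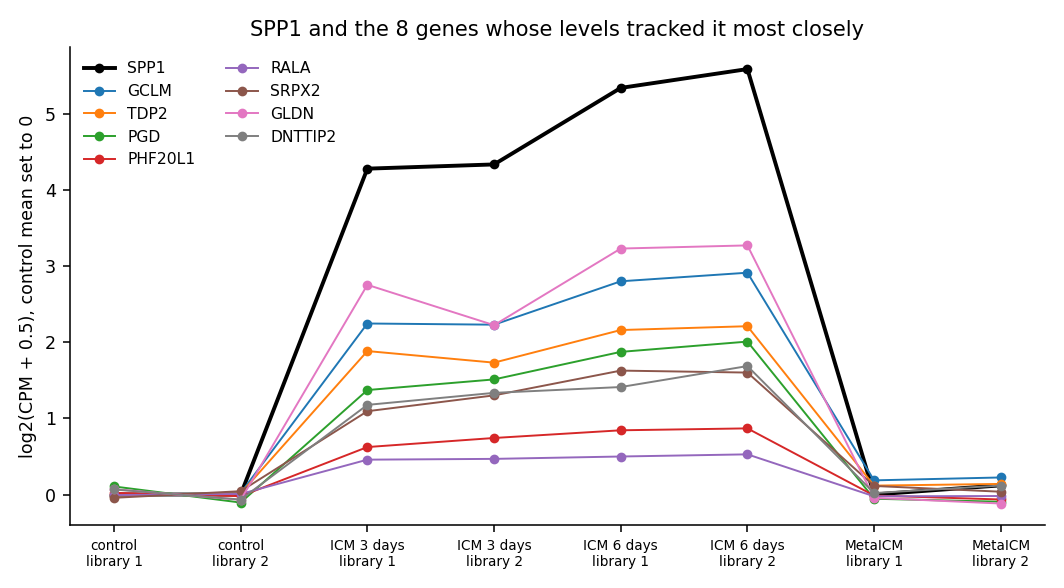
Log2(CPM + 0.5) of SPP1 (black) and the 8 genes most like it in each of the 8 libraries, each gene set to 0 at its control mean. Lines join the points of a gene and imply no order of libraries; all genes return to near 0 in MetaICM, and SPP1 has the largest span.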

How the data were processed

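Factory RNA-Seq of IMR90 was analysed from 8 tables of raw read-pair counts over the exons of 28265 RefSeq genes, as the authors deposited them. Per the file headers, featureCounts 1.6.3 counted primary alignments with both ends mapped, without chimeric pairs and without strand. Per the submitters' processing notes, alignment used STAR 2.6.0c and GRCh37 (hg19). The intronic counts that the study used for nascent RNA were not analysed here. The labels gave 4 groups of 2 libraries.

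Each comparison was fitted on its 4 libraries with edgeR 4.0.16 (R 4.3.3): TMM scaling, filterByExpr with a count minimum of 10, the quasi-likelihood test and Benjamini-Hochberg adjustment over all tested genes. Calls required an adjusted p-value below 0.05 together with a log2FC beyond 0.6 in either direction. On data simulated for 3 days against control, 200 genes were changed by 1.5 or 2 on the log2 scale. Of those that passed the filter 94.5% were recovered among 15654 genes, with 5 false calls. Over the 5 comparisons recovery ran from 91.2% to 95.9%, with 2 to 8 false calls. The simulation gave tested genes the dispersion of the trend, so variation particular to a gene was not part of it. Alternatives were DESeq2 1.42.0, DESeq2's size factors or library totals, 2 other filters, a joint fit of all 8 libraries, a replicate block, and each library left out; where that left 1 library in a group, it was assumed to vary like the other group. Upstream sequences and starts came from RefSeq (GRCh38.p14).

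The members and gene lists were chosen with earlier results of these data known. Named are the 6 members, up to 4 called genes of each list and comparison with the largest absolute log2FC (others are given for their role and were chosen after their values were seen), list genes at 0, the genes within 1000000 bases of SPP1 and the 8 genes most like it. Levels and figures were made in Python 3.11.15 (pandas 2.3.3, numpy 2.4.6, matplotlib 3.10.9, scipy 1.17.1).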

Additional observations from a re-analysis of the deposited data

Results flagged for a closer look

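For 14 genes of the lists and of the SPP1 neighbourhood, the effect of ICM at 6 days differed from that at 3 days in edgeR's direct comparison of both times (Benjamini-Hochberg adjusted). Of all 15845 tested genes, 3.53% were called higher and 4.54% lower at 6 days than at 3 days. The difference, 6 days minus 3 days on the log2 scale, was negative for 9 of the 14 genes. Among receptors it was −1.40 for ITGB3 (adjusted p = 2.56e-09) and −0.62 for ITGA5 (adjusted p = 0.000729). It was −1.05 for the kinase FAM20C (adjusted p = 2.21e-06). Among transcription factors it was −0.65 for RUNX1, −0.72 for RUNX2 and −0.75 for JUNB. Of the mineralised tissue genes, COL1A1 differed by −0.94 and the phosphate transporter SLC20A1 by −0.61, while TNFRSF11B differed by 1.06. ENAM differed by 1.54. In the neighbourhood the difference was 1.40 for ABCG2, 1.52 for PPM1K, 0.79 for NAP1L5 and −2.33 for HERC5, an interferon-induced ubiquitin ligase with 0.106 to 1.08 CPM per library. HERC5 had 19 and 16 pairs after 3 days and 5 and 2 after 6 days and passed the filter on low counts only through the 3-day libraries, so its difference is a description. The calls of RUNX2, ITGA5 and HERC5 were lost with DESeq2, and those of RUNX1, RUNX2, JUNB, SLC20A1, ITGA5 and HERC5 without at least 1 of the 4 libraries compared. Only ITGB3 was higher than control at 3 days and not called at 6 days, whereas PPM1K, NAP1L5, TNFRSF11B, JUNB, ITGA5 and SLC20A1 were called against control at 6 days and not at 3 days. PPM1K had a log2FC of −0.11 after 3 days and 1.42 after 6 days. With 2 libraries per group, no library could be tested as standing apart.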

How the results depend on the processing

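With 2 libraries per group, calls near the cutoffs depended on single libraries. Beside leaving out libraries, 260 of 261 recomputed summary values stayed the same. For a log2FC this meant its direction and whether it was called, and for a count or level its approximate size. The size of a log2FC was not part of this check. The exception was DESeq2, which called 1 receptor between 6 and 3 days in place of 2. The CD44 difference between 6 and 3 days was −0.084 without the 3-day library 1 and −0.021 without the 6-day library 2, and ranged from −0.084 to 0.16. Genes called after 3 days numbered 3456, and 2301 to 4068 with a library left out. For MetaICM against control, 2609 genes were called, and 1049 to 4086 with a library left out, along with 1 to 5 genes of modification and cleavage, 2 to 8 regulators, 0 to 1 CD44 partners and 1 to 5 mineralised tissue genes. Between 6 and 3 days the ranges were 1 to 2 receptors, 1 to 3 regulators and 2 to 7 mineralised tissue genes, and for MetaICM against 6 days 1 to 3 receptors. Of the called genes of the lists, markers and neighbourhood, recomputed chosen after seeing the data, 82 of 680 values lost the call when a library was left out and 35 of 1177 under other settings, and 0 turned direction. Of the 8 genes most like SPP1, 5 remained with library totals, 5 with a constant of 1 CPM and 2 to 5 with a library left out (2 without control library 2 or MetaICM library 1). Libraries with the same replicate number deviated together with r from −0.11 to 0.17 between groups. Such values show no strong pairing by number, but with 2 libraries per group they cannot exclude one. With the replicate number as a block, CD44 had a log2FC of 0.19 after 3 days, 0.23 after 6 days and 0.42 in MetaICM against control, and 3915 genes were called after 3 days. Depth limits SPP1 to under 0.104 CPM in control and leaves IBSP, MEPE, DMP1 and DSPP untested.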
